A study of Homo sapiens and Mus musculus with 9 samples.

Results

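The genes described here are NR1I2, which encodes the pregnane X receptor (PXR), and 5 genes of proteins that work with it or beside it: the partner receptor gene RXRA, the coactivator gene NCOA3, the related sensor and receptor genes AHR and HNF4A, and the P450 reductase gene POR. A peak was counted for a gene when its summit lay within the gene's span on the human genome build hg38. Of 3706 peaks in 3 human lists, 5 lay in these genes, and 4 of the 6 genes held at least 1 of them. The peaks come from eCLIP, in which RNA is crosslinked to protein by UV light in living cells, trimmed with RNase, pulled down with an antibody and sequenced.

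PXR is a nuclear receptor that senses drugs, steroids and bile acids. It pairs with RXRα on DNA and recruits coactivators such as NCOA3 (also called SRC-3) to switch on genes for P450 enzymes, conjugating enzymes and transporters in liver and gut. HNF4α, a receptor that maintains hepatocyte and gut epithelial gene expression, helps set the level of PXR. AHR is no nuclear receptor but a ligand-activated factor that senses planar aromatic compounds, and the reductase POR passes electrons to the P450 enzymes that these sensors induce.

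The study immunoprecipitated PXR from 3 sources. Libraries labelled LS174T, a human colorectal adenocarcinoma line, comprised 1 PXR IP from PXR knockout cells, 1 PXR IP from wild-type cells and 1 wild-type input. Libraries labelled HepG2, a human hepatocellular carcinoma line, comprised 2 IPs with an antibody to the HA tag and 1 input. Libraries from liver of mice carrying human PXR comprised 2 PXR IPs and 1 input, and their mouse peaks were not analysed here. The labels name no drug treatment of the cells, do not say how the HA tag was introduced or whether the knockout line is 1 clone, and give no age for the mice.

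The 2 LS174T lists go against their labels, and this touches every LS174T value below. In the record 1 list belongs to the wild-type input and 1 to the PXR IP of wild-type cells, whereas their peaks are named WT in the first and KO in the second. They are called the WT-named and KO-named list, and neither genotype nor input against IP is taken as settled. HepG2 has 1 list and LS174T has 2, and none gives values per library. This leaves no replicate spread to compare with, and no test between lists was made. The HepG2 list held 1557 peaks, the KO-named list 46 and the WT-named list 2103, with a median of 9, 19 and 11 reads at the summit. Total library depths were not given. Of 6 colon epithelium markers the WT-named list had peaks in EPCAM, MUC2 and TFF3, the HepG2 list in EPCAM and the KO-named list in none. Of 6 hepatocyte markers, ALB, APOA1, AFP, TTR, SERPINA1 and FGB, no list had a peak in any. A list shows called peaks only, so a gene without one may still have been transcribed.

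Sequence was at hand for part of one peak, the second AHR peak of the WT-named list, because it runs into the RefSeq (GRCh38.p14) promoter window of the antisense lncRNA gene LOC101927609. The stretch chr7:17299271-17299413, plus strand, covers 143 of the 203 bases of the peak and starts 18 bases after its summit. It is shown because it is the sense strand of AHR RNA under the peak, with each CpG in capitals.
AHR peak: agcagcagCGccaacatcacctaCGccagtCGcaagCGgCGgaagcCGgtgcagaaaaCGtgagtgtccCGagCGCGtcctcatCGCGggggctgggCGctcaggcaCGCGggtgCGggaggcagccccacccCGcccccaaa

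G and C made up 70.6% of these bases, with 17 CpGs. The letters GTGAGT, which fit the consensus of a 5′ splice site, occurred in it 1 time, from base 60 (position 17299330). Searched on both strands, they occurred in 5.98% of 35116 stretches of the same length, the first bases of each RefSeq promoter window. Those bases lie before a start site, whereas the AHR stretch lies inside its gene. The share is therefore no background for transcribed sequence. This describes the letters only, since the gene tables used here give spans without exons, introns or UTRs.

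The upstream sequences below are shown because AHR and NCOA3 held peaks just downstream of them while NR1I2 held none. Each is the 250 bases before the first start site in RefSeq GRCh38.p14, on the plus strand, with each CpG in capitals. They lie at chr7:17298402-17298651 for AHR, chr20:47501637-47501886 for NCOA3 and chr3:119781851-119782100 for NR1I2.
AHR: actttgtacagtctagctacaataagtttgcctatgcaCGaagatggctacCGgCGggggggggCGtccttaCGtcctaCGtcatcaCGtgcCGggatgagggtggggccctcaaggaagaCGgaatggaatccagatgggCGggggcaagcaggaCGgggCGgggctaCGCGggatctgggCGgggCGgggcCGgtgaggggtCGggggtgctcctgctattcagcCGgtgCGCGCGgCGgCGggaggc
NCOA3: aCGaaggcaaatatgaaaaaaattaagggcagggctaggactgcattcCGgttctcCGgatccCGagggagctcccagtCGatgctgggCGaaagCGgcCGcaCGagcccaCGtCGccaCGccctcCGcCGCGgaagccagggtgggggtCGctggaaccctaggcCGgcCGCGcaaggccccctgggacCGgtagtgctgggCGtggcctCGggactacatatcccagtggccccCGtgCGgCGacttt
NR1I2: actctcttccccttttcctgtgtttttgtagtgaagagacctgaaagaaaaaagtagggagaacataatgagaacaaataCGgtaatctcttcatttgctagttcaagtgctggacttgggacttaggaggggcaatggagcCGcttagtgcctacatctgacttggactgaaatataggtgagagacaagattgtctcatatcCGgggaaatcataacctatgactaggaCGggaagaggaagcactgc

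G and C made up 66.8% of the AHR and 66.4% of the NCOA3 upstream window, with 24 and 25 CpGs, and 71.7% and 70.7% of all RefSeq windows had less. The NR1I2 window stood at 44.0% with 4 CpGs, and the median over 35116 RefSeq windows was 58.0% with 11 CpGs. The first RXRA window had 89.2% and 59 CpGs, and the gene held no peak. HNF4A held a peak far from its start sites, and its windows, at 58.4% and 58.0% with 8 CpGs each, were close to the median in G and C. The GC box letters GGGCGG, counted on both strands with overlaps allowed, occurred 4 times in AHR and in neither NCOA3 nor NR1I2, against 42.6% of all windows with at least 1. The letters AGGTCA, the half-site that nuclear receptors read, were in none of the 3 windows and in 12.1% of all windows. The letters GCGTG, the core that AHR reads with its partner ARNT, occurred 2 times in NCOA3, in neither AHR nor NR1I2, and in 32.2% of all windows.

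NR1I2 lies on chromosome 3 from 119782101 to 119818487, a span of 36.4 kb. It held 0 peaks in HepG2, 0 in the KO-named list and 0 in the WT-named list, and none of the lists had a peak within 5 kb of it. The nearest peak of the WT-named list lay 276 kb beyond its end, in the kinase gene GSK3B, with 6 reads and a deposited fold enrichment of 5.74. In HepG2 the nearest was 2470 kb away, in the calcium receptor gene CASR, with 4 reads, and in the KO-named list 45200 kb away. PXR's own RNA therefore gave no called site in any human list, and the lists cannot check the knockout label through it.

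RXRA, on chromosome 9 from 134326455 to 134440585, also held no peak in any list and none within 5 kb. It is a long gene of 114 kb, more than 3 times the length of NR1I2. The nearest WT-named peak was 976 kb before its start, in the ribosomal protein gene RPL7A with 21 reads, and the nearest HepG2 peak 575 kb before it, with 4 reads. Both partners of the PXR heterodimer were thus without a called peak, as were most genes of such length. Of 5920 protein-coding genes no shorter than NR1I2 and no longer than NCOA3, 5.98% held one in HepG2. The shares were 0.101% in the KO-named list and 7.79% in the WT-named list.

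**Figure D1:**
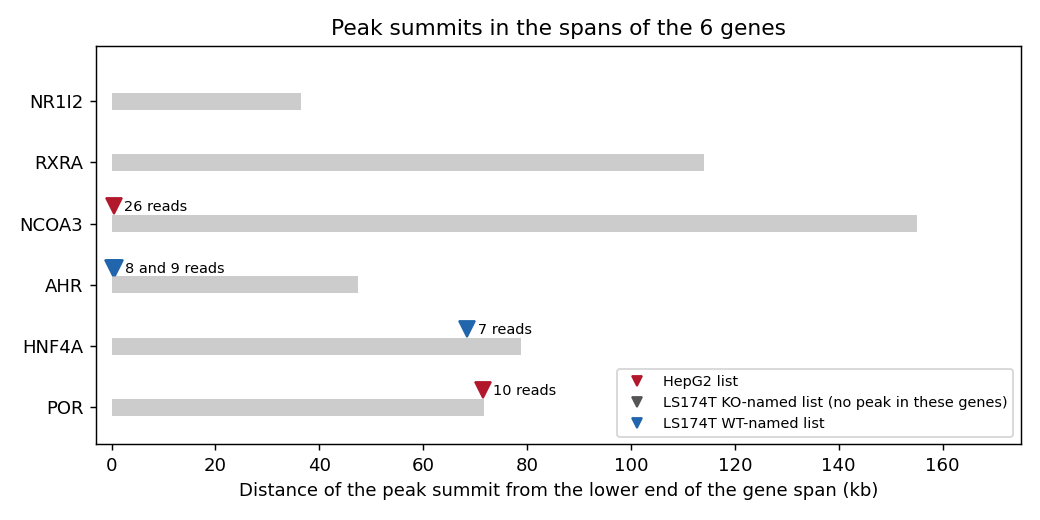
The 6 gene spans are drawn to scale as grey bars in kb from the end with the lower coordinate, and triangles mark peak summits with the reads at each. NR1I2 and RXRA carry none, and the peaks of NCOA3 (26 reads) and AHR (8 and 9 reads) sit at the start of the span. The POR peak (10 reads) sits at the other end, and the HNF4A peak (7 reads) lies 10.4 kb before that end of its gene. No KO-named peak falls in any of the 6 genes.

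HNF4A, on chromosome 20 from 44355699 to 44434596, held 1 peak in the WT-named list and none in HepG2 or the KO-named list. The peak lay at chr20:44424084-44424283 on the plus strand, which is the strand of the gene. It rested on 7 reads of the 18 in the surrounding 10 kb (38.9%, Clopper-Pearson 95% interval 17.3 to 64.3%), with a fold of 5.88 and a −log10 q of 4.10. HNF4A is transcribed from 2 promoters, the distal P2 and the proximal P1. The summit was 68.5 kb after the first of these start sites and 22.9 kb after the second, and 10.4 kb before the end of the gene, so it was close to neither. This was the weakest of the 5 peaks, and 22.2% of WT-named peaks had a lower fold.

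AHR, on chromosome 7 from 17298652 to 17346147, held 2 peaks in the WT-named list and none in the others. The first lay at chr7:17298812-17299011 with 8 reads, a fold of 6.25 and a −log10 q of 4.67. The second lay at chr7:17299211-17299413 with 9 reads, a fold of 6.94 and a −log10 q of 5.90. Both were on the plus strand, the strand of AHR, and their summits were 290 and 601 bp after the start of the gene, 311 bp apart with a gap of 199 bp between the peaks.

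The 17 reads at the pair of AHR summits made up 77.3% of the 22 reads in the surrounding 10 kb (Clopper-Pearson 95% interval 54.6 to 92.2%). Most reads in this window thus lay at the pair, but summits are placed where reads pile up, which raises such a share. Taken singly the summits held 36.4% and 40.9%, against a median of 54.5% over all WT-named peaks. The reads may include PCR copies, so the interval for the pair and the other intervals cover counting error only. A gene with more than 1 peak was not rare in the WT-named list, where 298 of 1448 protein-coding genes with a peak (20.6%) held at least 2. A pair within 1 kb of the start and on the gene's strand was less frequent, in 14 of the 643 genes with any peak there (2.18%). The lncRNA gene LOC101927609 runs from 17134912 to 17299320 on the minus strand and covers both AHR summits. The peaks were called on the opposite strand to it. Beyond its own span AHR stood far from other peaks, the nearest lying 497 kb before it in the WT-named list, in the secretory gene AGR2 (21 reads), and 545 kb before it in HepG2, in TSPAN13 (7 reads).

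NCOA3, on chromosome 20 from 47501887 to 47656872, held 1 peak in HepG2 and none in the LS174T lists. It lay at chr20:47502178-47502464 on the plus strand, the strand of the gene, with its summit 399 bp after the start in a span of 155 kb. With 26 reads it was the deepest of the 5 peaks. It also had the highest fold, 8.82, and the highest −log10 q, 15.3. It ranked 192 of 1557 in its list by reads and 394 by fold. At its summit lay 26 of the 103 reads of the 10 kb window (25.2%, Clopper-Pearson 95% interval 17.2 to 34.8%), so most reads of this window were elsewhere. The median over all HepG2 peaks was 62.5% of window reads at the summit. The nearest WT-named peak lay 128 kb beyond the end of NCOA3, in the sulfatase gene SULF2, with 4 reads, and the KO-named list had no peak anywhere on chromosome 20.

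POR, on chromosome 7 from 75915155 to 75986855, held 1 peak in HepG2 and none in the LS174T lists. The peak, at chr7:75986511-75986710 on the plus strand, rested on 10 of 31 window reads (32.3%, Clopper-Pearson 95% interval 16.7 to 51.4%), with a fold of 6.79 and a −log10 q of 5.57. Its summit was 225 bp from the upper end of the 71.7 kb span. The membrane protein gene TMEM120A, on the minus strand, begins its span just above the peak, which did not reach it. No strand for POR is listed in the tables used here. POR also hosts the small nucleolar RNA gene SNORA14A, and no peak lay there. The neighbouring peaks of both HepG2 (15 reads) and the WT-named list (10 reads) were 61.4 kb beyond the end, in MDH2, the mitochondrial malate dehydrogenase gene.

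Set against all genes, the 6 genes held peaks in 2 of 6 in HepG2, where 5.45% of 20037 protein-coding genes did. They held none in the KO-named list, where 0.11% of genes did, and 2 of 6 in the WT-named list, where 7.23% did. Among the 5920 genes no shorter than NR1I2 and no longer than NCOA3, the shares were 5.98%, 0.101% and 7.79% in the same order. The 6 genes were picked with earlier results of these lists known, so their counts are a description and carry no test.

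None of the 5 peaks overlapped a peak of another list. Partners were common for peaks like that of NCOA3, since 60 of 99 HepG2 peaks in protein-coding genes with 21 to 31 reads (60.6%, Clopper-Pearson 95% interval 50.3 to 70.3%) overlapped a WT-named peak. At the depth of the POR peak, 8 to 12 reads, 156 of 371 did (42.0%, interval 37.0 to 47.3%). For the WT-named peaks partners in HepG2 were fewer, with 75 of 408 at 6 to 8 reads, the depth of HNF4A (18.4%, interval 14.7 to 22.5%), and 86 of 376 at 8 to 10 reads, the depth of the second AHR peak (22.9%, interval 18.7 to 27.5%). A lone peak at such a depth does not show that the RNA was bound in 1 cell line and not in the other.

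**Figure D2:**
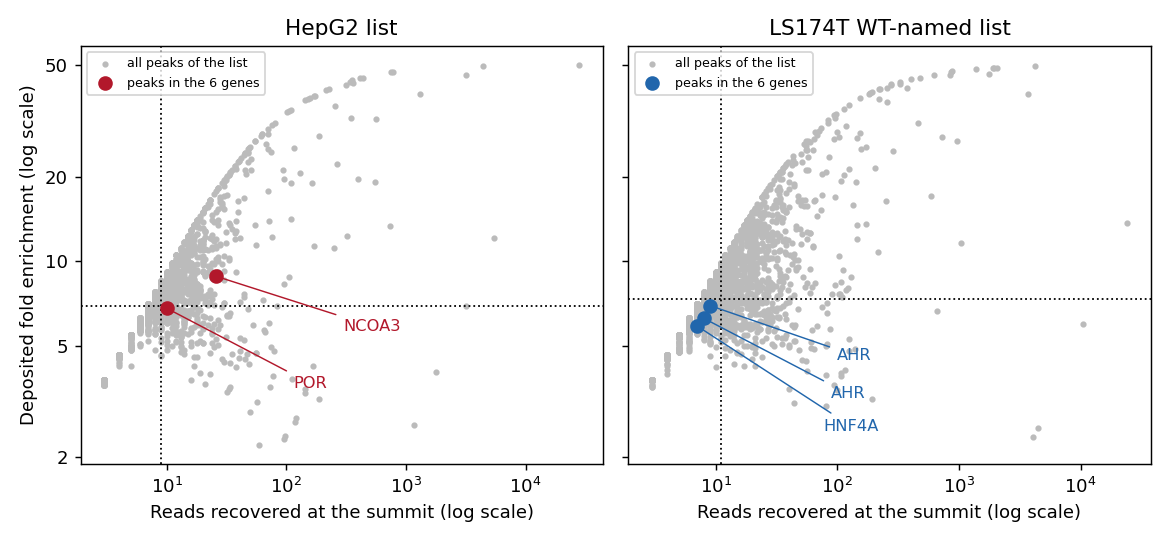
Each grey point is a peak, by the reads recovered at its summit and its deposited fold enrichment, both on log scales, with dotted lines at the medians of the list. In HepG2, NCOA3 lies above both medians (26 reads, fold 8.82) and POR near them (10 reads, fold 6.79), while in the WT-named list AHR (8 and 9 reads) and HNF4A (7 reads) lie below both. The 1 WT-named peak without a unique read number is not drawn.

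In depth the NCOA3 peak stood above the median of its list, the POR peak close to it and the 3 WT-named peaks below it. In HepG2, 87.2% of peaks had fewer reads than NCOA3 and 50.3% fewer than POR. In the WT-named list, 34.2% and 27.8% had fewer reads than the AHR peaks and 18.7% fewer than HNF4A. All 3 WT-named peaks fell under 10 reads, and with that minimum no gene of the 6 keeps a WT-named peak.

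All 5 peaks were on the plus strand, and for AHR, HNF4A and NCOA3 this is the strand of the gene. In the lists as a whole 844 of 999 peaks in protein-coding genes of listed strand (84.5%) matched the gene's strand in HepG2 and 1432 of 1551 (92.3%) in the WT-named list. Start-proximal summits, within 1 kb of the start, were common in general, at 462 of these 844 peaks in HepG2 (54.7%) and 658 of 1432 in the WT-named list (45.9%). The position of the NCOA3 and AHR peaks was therefore that of many peaks in these lists. Summits in the last 1 kb of a gene made up 17.1% and 20.2%.

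Genes of the same pathways were set beside the 6, in 7 groups holding 141 distinct genes. HepG2 had a peak in 16 of the 141 (11.3%), the KO-named list in 0 and the WT-named list in 19 (13.5%). The shares over all protein-coding genes were 5.45%, 0.11% and 7.23% in the same order. With 46 peaks in all, the KO-named list had few to place in any group, so its 0 is no contrast with the WT-named list. FKBP4, HSP90AB1 and PTGES3 were among the genes with peaks in HepG2 as well as in LS174T. Of the 46 peaks in these genes, 33 were on the gene's strand, 1 was opposite and 12 were in genes of unlisted strand.

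Of all protein-coding genes, 5.45% held a HepG2 peak and 7.23% a WT-named peak, and no test was made against these shares. Among the 48 nuclear receptor genes HepG2 had a peak in 3 (6.25%) and the WT-named list in 5 (10.4%). In HepG2 these were ESR1, the oestrogen receptor α gene, with 9 reads, RORB, an orphan receptor gene, with 5 and NR6A1 with 3. The NR6A1 peak lay on the strand opposite to the gene, within the lncRNA gene MIR181A2HG. In the WT-named list they were HNF4A, PPARA, the fatty acid sensor gene, with 5 reads, NR1D2, the clock repressor gene REV-ERBβ, with 5, ESRRA, a regulator of mitochondrial genes, with 11 and NR2F6 with 11 and 12 at its peaks. The NR1D2 summit also lies in the span of NKIRAS1. No nuclear receptor gene held a peak in both lists, but with 3 and 5 of 48 called, little sharing could be seen. Sharing over all genes was not worked out, so this shows no difference between the lists. No receptor peak in either list had more than 12 reads. With a −log10 q of at least 5, or with at least 10 reads, the count was 0 of 48 in HepG2 and 2 of 48 in the WT-named list.

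Peaks lay in 5.45% of all protein-coding genes for HepG2, 0.11% for the KO-named list and 7.23% for the WT-named list. Of the 23 coactivator and corepressor genes, 4, 0 and 4 held a peak in the same order (17.4% where there were 4). Beside NCOA3, those in HepG2 included SMARCA4, the motor subunit gene of a chromatin remodeller, with 10 reads and PPARGC1A, the PGC-1α gene, with 3. Those in the WT-named list included NCOR1, a corepressor gene, with 6 reads, the acetyltransferase gene CREBBP with 6 and NRIP1, a corepressor gene, with 5. At 26 reads NCOA3 was the deepest site of this group in any list. With a −log10 q of at least 5, or with at least 10 reads, the count was 2 of 23 in HepG2 and 1 of 23 in the WT-named list.

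Chaperones hold AHR, and in mouse liver unstimulated PXR, in the cytosol. Their genes had peaks in 6 of 11 in HepG2 (54.5%), the highest share of the 7 groups there, and in 4 of 11 in the WT-named list (36.4%). Among all protein-coding genes the shares were 5.45% and 7.23%. HSP90AB1, the constitutive HSP90 gene, held 23 reads in HepG2 and 34, 27 and 46 reads in the WT-named list. PTGES3, the p23 co-chaperone gene, held 10 and 16 reads, and FKBP4 held 14 and 14 in HepG2 and 15 and 14 in the WT-named list. STUB1 (24 reads), HSP90AA1 (15) and HSPA4 (5) had peaks in HepG2 alone, and HSPA8 (28 and 38) in the WT-named list alone, without a test of that difference. Over all protein-coding genes, 60.6% of HepG2 peaks with 21 to 31 reads and 42.0% with 8 to 12 reads overlapped a WT-named peak. Peaks in 1 list only were thus common, and sharing over all genes was not worked out. The 4 genes therefore show no difference between the lists. The FKBP4 and STUB1 summits also lie in the lncRNA genes ITFG2-AS1 and LOC102724984. The chaperone sites were deeper than those of the receptors, with a median of 14 reads for HepG2 peaks and 27.5 for WT-named peaks, against 5 and 9 for the nuclear receptor genes. Their summits held 20.0 to 100% of window reads in HepG2 and 13.6 to 94.1% in the WT-named list. Most held less than the list medians of 62.5% and 54.5%. Folds ran from 5.45 to 8.33 in HepG2 (list median 6.94) and from 5.65 to 12.7 in the WT-named list (7.35). Depth here is thus no measure of enrichment.

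**Figure D3:**
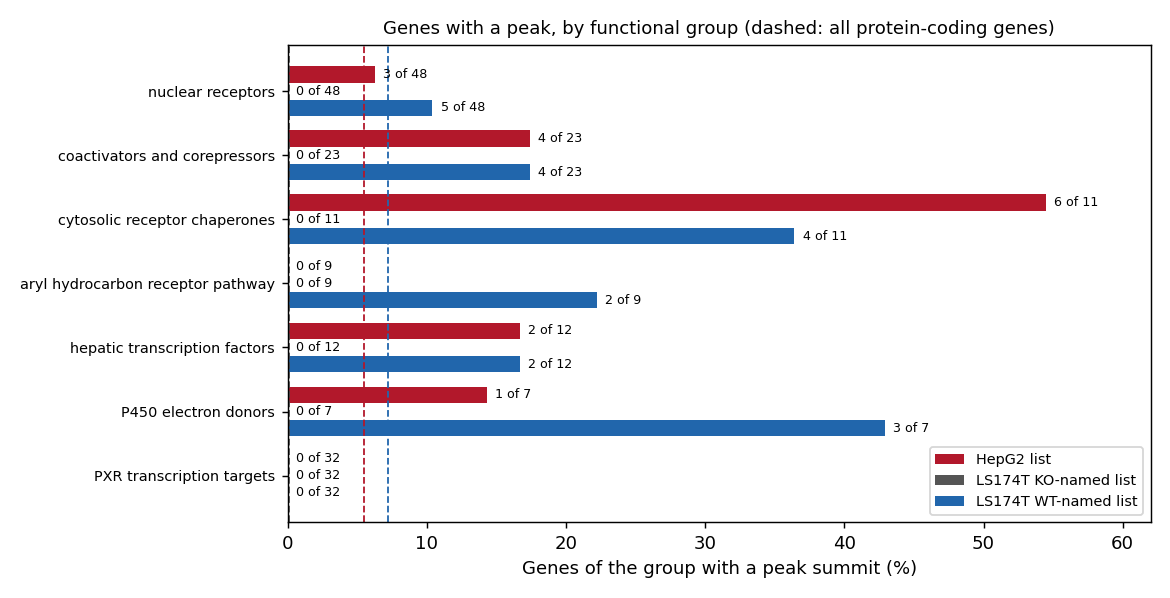
Bars give the percentage of genes with a peak summit in each functional group for the 3 human lists, with counts beside them, and dashed lines give the share over all protein-coding genes (5.45% in HepG2, 0.11% in the KO-named list and 7.23% in the WT-named list). Chaperone genes reach 54.5% and 36.4% in HepG2 and the WT-named list, and PXR transcription targets 0 of 32 in every list.

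In the AHR pathway the WT-named list had peaks in AHR itself and in NQO1, a quinone reductase gene that AHR induces, with 9 and 13 reads, which is 2 of 9 genes (22.2%). HepG2 had none of the 9. Over all protein-coding genes, 7.23% held a peak in the WT-named list and 5.45% in HepG2. No test was made against these shares. ARNT, the partner of AHR, its repressor AHRR and the targets CYP1A1, CYP1A2, CYP1B1 and TIPARP held no peak in any list. Among 7 genes of proteins that feed electrons to P450 enzymes, HepG2 had POR alone, and the WT-named list had CYB5B with 11 reads, CYB5R3 with 8 at each of its peaks and PGRMC1, a haem-binding partner of P450s, with 7. CYB5B and CYB5R3 encode a cytochrome b5 and its reductase. Peaks thus lay in 1 of 7 electron donor genes (14.3%) in HepG2 and 3 of 7 (42.9%) in the WT-named list. With at least 10 reads, the WT-named list kept 1 of 9 AHR pathway genes and 1 of 7 electron donor genes. With a −log10 q of at least 5 it kept 2 of 9 and 2 of 7. The POR peak in HepG2 passed either minimum.

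Over all protein-coding genes, 5.45% held a peak in HepG2, 0.11% in the KO-named list and 7.23% in the WT-named list. Hepatic transcription factor genes had peaks in 2 of 12, 0 of 12 and 2 of 12 in the same order. These were ONECUT1 (16 reads, all the reads of its window) and GATA6 (5 reads) in HepG2, and HNF4A and CEBPB (13 reads) in the WT-named list. FOXA1, FOXA2, FOXA3 and CEBPA held none. With a −log10 q of at least 5, or with at least 10 reads, the count was 1 of 12 in HepG2 and 1 of 12 in the WT-named list. No PXR transcription target held a peak in any list, 0 of 32, among them CYP3A4, the main drug-metabolising P450 gene, CYP2B6, the bilirubin-conjugating UGT1A1 and the efflux transporter gene ABCB1. Most protein-coding genes held none either, as the shares above show. Whether 0 of 32 falls below those shares was not tested.

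Of the 33 peaks of these pathway genes on the gene's strand, 13 (39.4%) had their summit within 1 kb of the start. These summits lay at 165 to 601 bp, with a median of 247 bp. The share was 36.4% for HepG2 peaks and 40.9% for WT-named peaks, against 54.7% and 45.9% over all protein-coding genes of listed strand. Summits near the start were thus no more frequent here than among all genes, and no test was made. Distances over all genes were not worked out, so the ranking holds within the 13 only. Of the 13, the second AHR peak was the farthest, and the NCOA3 peak, at 399 bp, the farthest in HepG2. SMARCA4 at 197 bp, PTGES3 at 247 bp in HepG2 and 260 bp in the WT-named list, ESRRA at 234 bp, PPARA at 178 bp and NR1D2 at 210 bp were closer. Of the 17 HepG2 peaks in pathway genes, 6 took up every read of the window, including those of PPARGC1A, HSPA4, ONECUT1, NR6A1 and RORB, and of the 29 WT-named peaks 0 did. Over all peaks this held for 30.1% of HepG2 peaks against 15.6% of WT-named peaks.

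**Figure D4:**
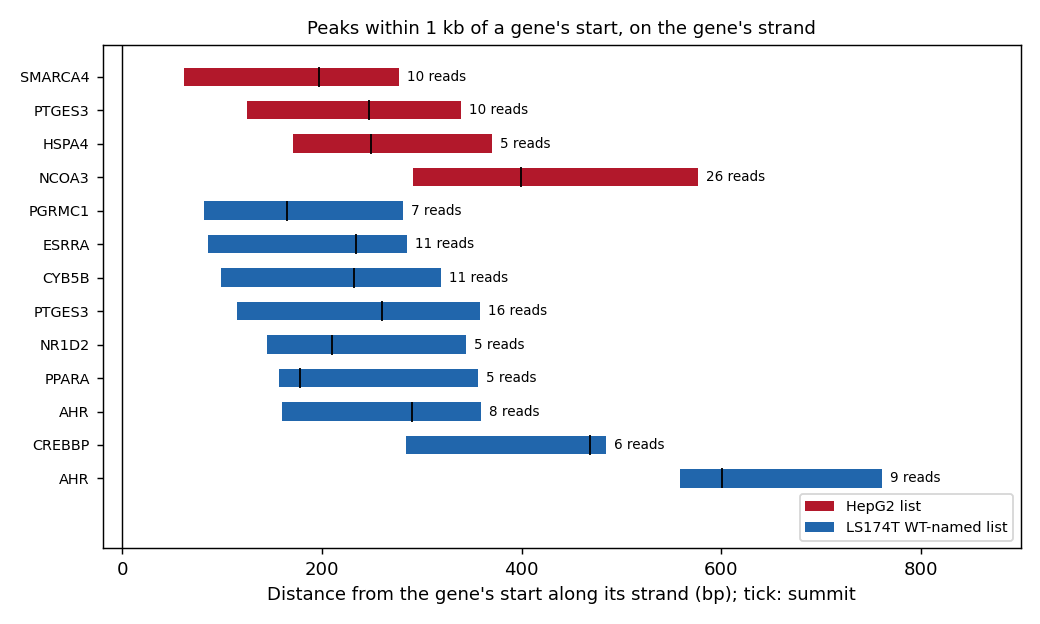
Bars show peaks whose summit (tick) lies within 1 kb of a gene's start on the gene's strand, in bp from the start, for HepG2 and the WT-named list, with the reads at each summit. The NCOA3 peak, at 291 to 577 bp, and the second AHR peak, at 559 to 761 bp, lie farther in than most peaks drawn. PTGES3 appears in both lists at overlapping positions.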

How the data were processed

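Peaks were deposited by the authors as 4 lists, of which the 3 human ones were used. The submitters' processing notes name cutadapt, BWA and MACS2, with hg38 and mm10 as builds, and versions, settings and pooling of replicates are not given in the sources used here. Peak names in the deposited files show that each strand was called separately. Each peak carries the authors' fold enrichment, a ratio against local background, their −log10 p-value and −log10 q-value, and a score, which in the deposited lists is 10 times the −log10 q-value cut to a whole number.

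Reads n at a summit and the background λ were solved here from the deposited fold, (n + 1) / (λ + 1), and the Poisson p of more than n reads, with λ a multiple of 0.02 (whole reads in 10000 bp at 200 bp extension). This gave 1 solution for 3705 of 3706 peaks. The solver was tested on data simulated with this same formula and step. Such a test cannot check the step itself, and it left out the shallowest peaks. That λ comes from reads of the same list is inferred from this match, so fold is not enrichment over input. Gene spans came from RefSeq GRCh38.p14 and strands from its promoter table. Positions are 1-based. Overlap meant at least 1 bp on the same strand. All 6 genes were named, with the genes of 7 pathway groups that held a peak, except for some not reported here. These genes and groups were chosen with earlier results of these data known. No test between lists was made, because lists hold no values per library. Alternatives were other gene assignments, a minimum −log10 q of 5, a minimum of 10 reads, other flanks and other overlap rules. Python 3.11.15, pandas 2.3.3 and scipy 1.17.1 were used.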

Additional observations from a re-analysis of the deposited data

How the results depend on the processing

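Counts over the 6 genes in HepG2 (2 peaks in 2 genes) and in the KO-named list (0) did not change under any overlap in place of the summit, a strand match, a −log10 q of at least 5 or at least 10 reads. POR, which has no listed strand, was kept in the strand match. In the WT-named list the 3 peaks in 2 genes fell to 1 peak in 1 gene, AHR, with a −log10 q of at least 5, and to 0 peaks in 0 genes with at least 10 reads, and stayed at 3 under the other settings. Peaks outside the 6 genes but near them were 0 with flanks of 1, 5 and 10 kb in each list, and peaks shared between lists were 0 with each overlap rule. Pathway genes with a peak went down in HepG2 (16) to 9 with a −log10 q of at least 5 and to 9 with at least 10 reads, and in the WT-named list (19) to 12 and to 10. The KO-named count of 0 became 1 with any overlap, through a peak whose summit lies outside the gene. Few reads per peak limit these counts. Leaving out replicates could not be run, as no list gives values per library. No paired analysis was possible because the lists carry no replicate numbers and no result comes from a test.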
